A study of Mus musculus with 12 samples.

Results

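The major urinary protein genes described here were the 10 rows of the liver expression table whose symbol was Mup2, Mup3, Mup7, Mup10, Mup11, Mup17, Mup18, Mup19, Mup20 or Mup21, out of 48795 rows in all. They were chosen by their counts across the 4 groups of these same livers, so each level and each difference of a member is a description and carries no test of its own. The table held 48 rows with a Mup symbol, of which the other 38 comprised 11 genes named by number and 27 pseudogenes.

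RNA was sequenced from the livers of 12 female mice, littermates aged 4 months on normal chow. The 4 groups held 3 mice each. Mice 254, 257 and 323 were labelled Nts+/+ and fed ad libitum, and mice 265, 282 and 322 were labelled Nts+/+ and had no food for 22 h. Mice 277, 303 and 319 were labelled Nts-/- and fed, and mice 284, 290 and 295 were labelled Nts-/- and had no food for 22 h. Nts encodes neurotensin, a peptide hormone of the gut and nervous system, and the knockout was of the whole body, so no comparison separates the liver's own part. The study asked how loss of Nts and fasting alter liver energy metabolism. The values are expected counts (read numbers per gene as RSEM estimated them, fractions included), scaled here to CPM, counts in 1000000 of the library, with edgeR's TMM factors (TMM-normalized CPM). Totals were between 21999656 and 45273081 counts a mouse, at which 3 counts equal 0.0663 to 0.136 CPM.

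The targeted gene went against the labels. Nts had 0 counts in all 6 libraries labelled Nts+/+, but 46, 40 and 15 counts in those labelled Nts-/- fed and 12, 4 and 18 in those labelled Nts-/- fasted. Nts+/+ and Nts-/- below therefore name libraries labelled so, and every direction between genotypes follows the labels. The source of the Nts counts in the libraries labelled Nts-/- was not tested, and the directions would turn only if the labels were exchanged. The 10 hepatocyte markers were all detected and summed to between 116500 and 160211 TMM-normalized CPM in each mouse.

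Major urinary proteins are small lipocalins that hepatocytes secrete into blood and that the kidney passes into urine, where they bind volatile pheromones and act as scent signals themselves. In mouse liver they are a classical readout of growth hormone pulses acting through STAT5B, are higher in males, and also respond to glucocorticoids, thyroid hormone and the energy state of the animal. The genes lie in one cluster on chromosome 4, in which recent duplicates of near-identical sequence sit between older, more diverged genes.

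All 10 members lay on chromosome 4 of GRCm38, the build of the table. Mup7, Mup2, Mup10, Mup11, Mup17, Mup18 and Mup19 lay in that order from 60066469 to 61782269 and are called the central members below. Mup20, at chr4:62050234-62054158, Mup3, at chr4:62083476-62087342, and Mup21, at chr4:62147932-62150863, followed at one end. Position and the near-identical sequence of the central members, not expression, set this division. Among the central rows was one with no symbol, ENSMUSG00000110439 at chr4:60817589-60821463, which GENCODE vM39 and RefSeq name Mup22. Mup22 is not a member, but it took between 53.9% and 86.3% of the counts that fell between Mup7 and Mup19 in each mouse, so its values stand beside those of the members.

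The genes were aligned over their coding sequences in GENCODE vM39. Shown are the 90 gap-free bases with the most variable positions among the genes printed, 31 of them. This stretch was picked for its differences and is not typical of the whole sequence. Over the whole coding sequence Mup3, for one, differed from Mup22 at 88 of 543 bases. Capitals mark bases that differ from Mup22.
Mup22: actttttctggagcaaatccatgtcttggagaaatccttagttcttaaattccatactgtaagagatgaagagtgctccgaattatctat
Mup18: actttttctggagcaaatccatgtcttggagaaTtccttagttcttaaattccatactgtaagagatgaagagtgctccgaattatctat
Mup19: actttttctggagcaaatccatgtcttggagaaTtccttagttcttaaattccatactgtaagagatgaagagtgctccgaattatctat
Mup11: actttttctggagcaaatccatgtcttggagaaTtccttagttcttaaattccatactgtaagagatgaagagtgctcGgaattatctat
Mup17: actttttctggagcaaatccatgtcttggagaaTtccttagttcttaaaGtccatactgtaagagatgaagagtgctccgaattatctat
Mup20: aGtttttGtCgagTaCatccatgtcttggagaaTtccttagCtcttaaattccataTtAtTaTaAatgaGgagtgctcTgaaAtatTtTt
Mup21: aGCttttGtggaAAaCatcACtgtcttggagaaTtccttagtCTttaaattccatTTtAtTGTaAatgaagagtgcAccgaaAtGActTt
Mup3: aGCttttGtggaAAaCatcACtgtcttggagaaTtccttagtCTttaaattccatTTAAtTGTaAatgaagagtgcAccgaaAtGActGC
Mup18 and Mup19 each differed from Mup22 at 1 base of the 90 and were identical to one another there. Mup11 and Mup17 differed from it at 2 bases, Mup20 at 17, Mup21 at 23 and Mup3 at 25. Over the whole coding sequence, the 28 pairs among the central members and Mup22 were between 98.3% and 99.8% identical, with 1 to 9 differences. The 24 pairs of a central gene with Mup3, Mup20 or Mup21 were between 83.1% and 91.3% identical, and Mup3 and Mup21 were 95.4% identical. Mup20 was 87.1% identical to Mup3 and 87.5% to Mup21. It was nearer to the central members, from 89.8% (Mup7) to 91.3% (Mup11 and Mup18).

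The share of each transcript that reads can assign was therefore counted. It was taken as the percentage of 75-base windows found in no transcript of another Mup gene (442 transcripts of 49 genes). Transcripts of other Mup genes whose exons overlap those of the chosen transcript were left out of the comparison. The percentage was 93.1% for Mup3, 92.2% for Mup21 and 56.4% for Mup20. Among the central members it was 35.5% for Mup17, 19.0% for Mup11, 14.2% for Mup7 and for Mup10, 13.0% for Mup18, and 0 for Mup2 and Mup19. Counts of Mup3 and Mup21 thus rest mostly on sequence of their own, whereas counts of the central members rest on how RSEM divided shared reads. A sum over all the near-identical genes, Mup22 included, depends less on that division than a sum over the members alone, and both are given beside the single values.

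**Figure D1:**
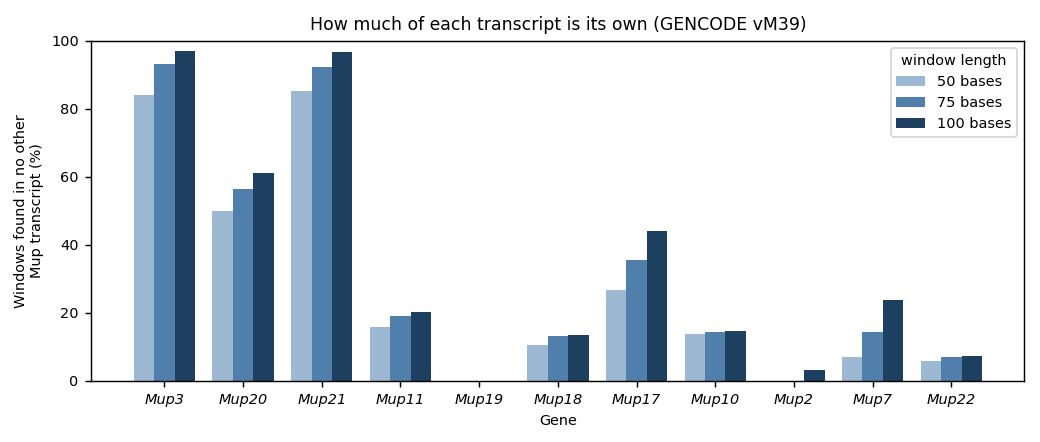
Percentage of windows of 50, 75 or 100 bases (light to dark bars) that occur in no transcript of another Mup gene. Each member and Mup22 are shown, and other genes' transcripts that overlap the exons of the chosen transcript were left out. The read length of the libraries is not given in the sources used here. Mup3 and Mup21 stand above 84% at every window length, Mup20 between 49.9% and 61.2%, and Mup19 at 0.

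RefSeq promoter windows of GRCm38.p6 were matched for 9 of the 10 members. The TATA box letters TATATAA, searched on both strands in the 250 bases before the annotated start, were in 7 of these 9 windows against 3.04% of all 32851 windows, and in Mup7 and Mup11 they were not in the window. The 137 bases that end in this motif are shown for the diverged Mup3 and Mup21 and for 3 central members, all on the minus strand, with TATATAA in capitals.
Mup3: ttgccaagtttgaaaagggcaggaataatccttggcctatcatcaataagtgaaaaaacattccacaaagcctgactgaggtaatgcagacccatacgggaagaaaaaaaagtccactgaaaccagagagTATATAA
Mup21: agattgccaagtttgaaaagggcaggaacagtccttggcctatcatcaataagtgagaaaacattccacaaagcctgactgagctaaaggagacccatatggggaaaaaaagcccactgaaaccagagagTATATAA
Mup17: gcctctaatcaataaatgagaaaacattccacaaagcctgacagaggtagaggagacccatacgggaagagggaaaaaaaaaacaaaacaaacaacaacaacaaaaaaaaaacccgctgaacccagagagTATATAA
Mup18: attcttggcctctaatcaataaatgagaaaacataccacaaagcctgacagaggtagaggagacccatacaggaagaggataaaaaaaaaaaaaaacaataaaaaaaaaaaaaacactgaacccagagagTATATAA
Mup19: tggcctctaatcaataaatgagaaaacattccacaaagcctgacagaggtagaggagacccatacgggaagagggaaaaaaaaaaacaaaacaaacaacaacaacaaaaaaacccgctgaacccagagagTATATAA
These stretches lay at chr4:62087322-62087458, chr4:62150843-62150979, chr4:61595851-61595987, chr4:61674116-61674252 and chr4:61782249-61782385, in the order printed. With gaps left out, Mup17 and Mup19 were 100% identical here, Mup3 and Mup21 94.0%, and Mup3 and Mup17 88.4%.  The palindromes TTCNNNGAA, bound by STAT5, and ACANNNTGT, the core of a glucocorticoid response element, were in 0 of the 9 windows, against 7.02% and 5.84% of all windows. This says only that these letters are not in these windows.

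Taken per 1000 bases of transcript, so that genes can be compared, Mup3 had the highest mean level of the members over the 12 mice, at 2264 TMM-normalized CPM per 1000 bases, and Mup22 stood at 1815. Mup19, Mup11, Mup20 and Mup18 stood between 94.2 and 219.9 on that scale. Mup17, Mup10, Mup21, Mup2 and Mup7 stood between 0.675 and 10.5. All further levels are TMM-normalized CPM per gene, not per length, and are compared between mice only.

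Mup3, a liver-expressed member of the diverged end of the cluster, stood at 3318, 3223 and 3847 in Nts+/+ fed livers and at 2173, 1277 and 2218 in Nts+/+ fasted livers. In Nts-/- livers it stood at 2377, 2356 and 1417 when fed and at 1502, 1442 and 1443 when fasted. The 3 Nts+/+ fed livers were thus above all 9 others, and fed mouse 319 stood among the fasted livers. The group means were 3463 ± 336 in Nts+/+ fed, 2050 ± 548 in Nts-/- fed, 1889 ± 531 in Nts+/+ fasted and 1462 ± 33.9 in Nts-/- fasted livers (SD, n = 3 each), and the ranges of Nts-/- fed and Nts+/+ fasted livers overlapped. On the log2 scale, fasted minus fed was -0.87 (SE 0.23) in Nts+/+ and -0.49 (SE 0.22) in Nts-/- livers.

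Mup20, known as darcin, is the pheromone by which females recognise and remember a male's scent, and it is a gene of male liver above all. It stood at 86.4, 95.7 and 164 in Nts+/+ fed livers and at 129, 47.2 and 107 in Nts+/+ fasted livers. Nts-/- livers had 157, 74.2 and 159 when fed and 80.9, 57.4 and 52.9 when fasted. Fed and fasted livers of one genotype overlapped, as did the genotypes within a feeding state. Of the 3 Nts-/- fed livers, 2 stood above every Nts-/- fasted liver and the other stood among them. The log2 difference on fasting was -0.29 (SE 0.41) in Nts+/+ and -1.03 (SE 0.42) in Nts-/- livers. Per 100 counts on Mup3, Mup20 had between 2.61 and 6.60 counts in 11 mice and 11.2 in mouse 319.

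Mup21, whose coding sequence is nearest to Mup3, was low, at 3.66, 4.23 and 8.16 in Nts+/+ fed and 8.40, 4.04 and 5.10 in Nts+/+ fasted livers. In Nts-/- livers it was 3.04, 2.07 and 5.85 when fed and 5.59, 2.38 and 2.08 when fasted. Every pair of groups overlapped. Nts+/+ fed livers, which stood above all others for Mup3, thus did not do so for Mup21, the gene that shared most of its coding sequence and of the stretch before its TATA box with Mup3.

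The central members encode the classical urinary proteins that bind volatiles. Mup11 stood at 304, 281 and 337 in Nts+/+ fed livers, at 174, 146 and 102 in Nts+/+ fasted livers, at 88.4, 92.7 and 14.5 in Nts-/- fed livers and at 234, 78.8 and 103 in Nts-/- fasted livers. As for Mup3, the Nts+/+ fed livers were above all others. The log2 difference on fasting was -1.13 (SE 0.63) in Nts+/+ and 1.09 (SE 0.63) in Nts-/- livers, and Nts-/- minus Nts+/+ in fed livers was -2.24 (SE 0.65).

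Mup18 stood at 161, 464 and 196 in Nts+/+ fed livers and at 87.3, 9.96 and 9.21 in Nts+/+ fasted livers. It stood at 5.57, 17.3 and 0.686 in Nts-/- fed livers and at 47.4, 25.6 and 34.4 in Nts-/- fasted livers. Every fasted liver was below every fed liver in Nts+/+ mice and above every fed liver in Nts-/- mice. The log2 difference on fasting was -2.96 (SE 1.18) in the first and 2.19 (SE 1.17) in the second, and Nts-/- minus Nts+/+ in fed livers was -5.12 (SE 1.31). These sizes rest on single mice. On fasting in Nts+/+ livers the difference was -4.82 without fasted mouse 265 (edgeR adjusted p = 0.0365) and -2.34 without fed mouse 257. In Nts-/- livers it was 3.48 without fed mouse 303 and 1.66 without fed mouse 319. Without mouse 303 the difference between the fed groups was -6.41.

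Mup19 stood at 50, 360 and 472 in Nts+/+ fed livers and at 65.7, 391 and 198 in Nts+/+ fasted livers. It stood at 63.8, 45 and 1.97 in Nts-/- fed livers and at 803, 68.5 and 125 in Nts-/- fasted livers. The Nts+/+ groups overlapped, and the Nts-/- fasted livers were all above the Nts-/- fed livers, by a log2 difference of 3.16 (SE 1.47) that was 1.39 without fasted mouse 284. Within the Nts+/+ fed group, mouse 254 had the lowest Mup19 and yet a level of Mup11 between those of the other two mice.

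Mup17 stood at 0.895, 13.5 and 36.5 in Nts+/+ fed, 1.30, 21.5 and 2.39 in Nts+/+ fasted, 1.82, 2.18 and 0 in Nts-/- fed and 39, 1.07 and 6.18 in Nts-/- fasted livers. The spread within a group was thus as large as any difference between groups, and mouse 319 had no count. Mup10 stood between 5.89 and 7.79 in Nts+/+ fed, 2.60 and 10.9 in Nts+/+ fasted, 1.48 and 12.3 in Nts-/- fed and 6.67 and 14 in Nts-/- fasted livers, and its groups overlapped. Mup2, of which no 75-base window is its own, stood between 2.68 and 4.19, 0.276 and 3.15, 0.592 and 5.56, and 1.23 and 1.83 in the same order. Mup7 stood between 1.57 and 2.87, 1.02 and 1.52, 0.181 and 1.36, and 0.121 and 1.68, so that the Nts+/+ fed livers were above the other fed and the Nts+/+ fasted livers. Counts behind Mup7 were 4.49 to 64.7 a mouse, and those behind Mup2 10.2 to 153.5.

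**Figure D2:**
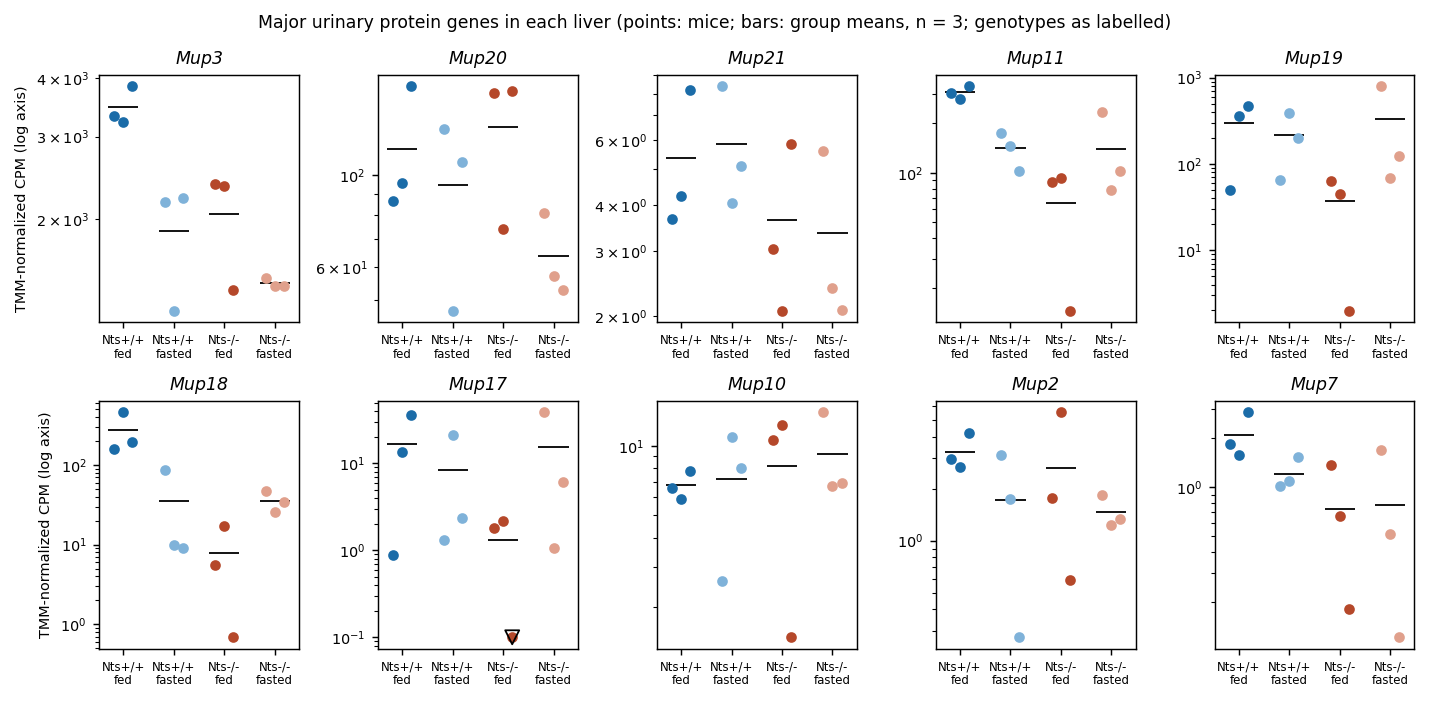
TMM-normalized CPM of each member on a log axis in the 3 mice of each group (points, group means as bars; the triangle marks a mouse at 0, drawn at the foot of the axis). Nts+/+ fed livers stand above all other groups for Mup3, Mup11 and Mup18, and mouse 319 is the lowest point of the Nts-/- fed group for Mup11, Mup17, Mup18, Mup19 and Mup10.

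Mouse 319, labelled Nts-/- fed, stood apart. It was the lowest of the 12 livers for 5 of the 10 members, namely Mup10, Mup11, Mup17, Mup18 and Mup19, all of them central. It was also lowest for all 7 other rows of the family that averaged 10 counts or more, with Mup22 at 189 against 1034 to 3893 in the other 11 mice. Because RSEM divides reads that such rows share, they are not separate observations. Mup20 at 159 and Mup21 at 5.85 were not low in mouse 319. Without it, the log2 difference of Nts-/- from Nts+/+ fed livers was -1.76 for Mup11, -4.59 for Mup18, -2.43 for Mup19 and -3.08 for Mup17. On fasting in Nts-/- livers it was 0.61, 1.66, 2.61 and 2.94 for these members, each of the same sign as with mouse 319 (-2.24, -5.12, -2.99 and -3.61, then 1.09, 2.19, 3.16 and 3.47). Without fasted mouse 284, it was 0.48 for Mup11, 1.39 for Mup19 and 1.47 for Mup17 on fasting in Nts-/- livers. For Mup10 it turned, without mouse 319, on fasting in Nts-/- livers, from 0.15 to -0.33.

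The 10 members summed to 3935, 4452 and 5075 in Nts+/+ fed livers, 2645, 1910 and 2652 in Nts+/+ fasted livers, 2711, 2608 and 1602 in Nts-/- fed livers and 2730, 1684 and 1774 in Nts-/- fasted livers. The 3 Nts+/+ fed livers lay above all 9 others, among which the groups overlapped. The means were 4487 ± 571, 2402 ± 427, 2307 ± 613 and 2063 ± 579 in that order (SD, n = 3 each), or 0.455%, 0.233%, 0.248% and 0.196% of all counts. The log2 ratio of the means, fasted over fed, was -0.90 in Nts+/+ and -0.16 in Nts-/- livers (-0.37 without mouse 319). Libraries labelled Nts-/- over those labelled Nts+/+ gave -0.96 when fed (-0.75 without mouse 319) and -0.22 when fasted. In bulk liver, fewer hepatocytes and less RNA per hepatocyte cannot be told apart.

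Most of that sum was Mup3, and the central members followed another course. The 7 central members summed to 904 ± 329 in Nts+/+ fed, 413 ± 146 in Nts+/+ fasted, 123 ± 89.6 in Nts-/- fed and 533 ± 529 in Nts-/- fasted livers. Without Mup3, the members' log2 ratio on fasting was -1.0 in Nts+/+ and 1.23 in Nts-/- livers, the latter of opposite sign to the sum of all 10. The size of the latter rests on mouse 284. Without Mup3, the Nts-/- livers had 333, 252 and 185 when fed and, when fasted, 1228 in mouse 284, 242 and 331. These groups thus overlapped. For the 7 central members alone, the Nts-/- fed livers had 173, 176 and, in mouse 319, 19.4. The Nts-/- fasted mean rested on mouse 284, with 1142 against 182 and 276 in the other two, and the log2 ratio of the 7 members' sums on fasting was 2.12 with it and 0.90 without it.

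Mup22 had 1145, 1516 and 2930 in Nts+/+ fed, 1034, 3177 and 1787 in Nts+/+ fasted, 1485, 1486 and 189 in Nts-/- fed and 3893, 1234 and 1770 in Nts-/- fasted livers, and its groups overlapped. Since Mup22 shares nearly all its sequence with the central members, the sum of every Mup row with Mup22 was also taken. Its log2 ratio on fasting was -0.53 in Nts+/+ and 0.40 in Nts-/- livers, and Nts-/- over Nts+/+ was -0.93 when fed and -0.01 when fasted. The value in Nts-/- livers rests on fasted mouse 284 and fed mouse 319. It was -0.05 without the first and 0.09 without the second, so its sign is not settled. The value between fasted groups was -0.45 without mouse 284. That between fed groups ran from -1.13 (without fed mouse 277) to -0.62 (without fed mouse 319) on leaving out 1 mouse. The means of this wider sum were 6527 ± 1581, 4523 ± 806, 3423 ± 1405 and 4506 ± 2105 in the order of the groups above, and mouse 319, at 1801, was the lowest.

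All rows between Mup7 and Mup19 with Mup22, the near-identical genes together, summed to 2943 ± 1244 in Nts+/+ fed, 2534 ± 1330 in Nts+/+ fasted, 1239 ± 883 in Nts-/- fed and 2976 ± 2055 in Nts-/- fasted livers. The log2 ratio on fasting was -0.22 in Nts+/+ livers, against -1.13 for the 7 members alone, and it was 0.15 without fed mouse 323 and 0.07 without fasted mouse 265. In Nts-/- livers it was 1.26, against 2.12 for the 7 members, and 0.54 without mouse 284. Nts-/- over Nts+/+ was -1.25 when fed, against -2.88 for the 7 members. On leaving out 1 mouse, that -1.25 ran from -1.58 (without fed mouse 277) to -0.75 (without fed mouse 319). Between fasted groups the ratio was 0.23, and -0.49 without mouse 284. The differences of the 7 members on fasting and between the fed groups were thus smaller in size once the counts on Mup22 were added.

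**Figure D3:**
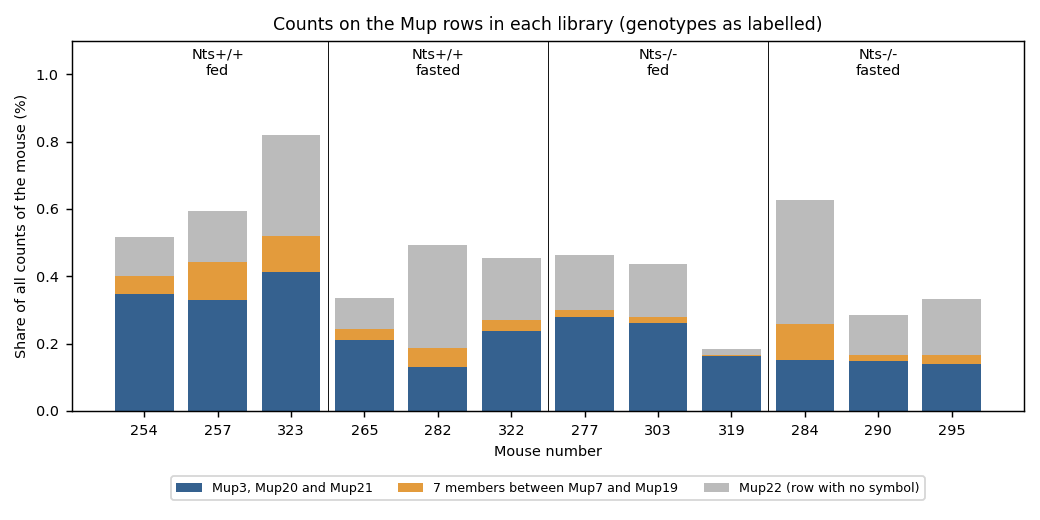
Share of all counts of each mouse, in percent, on Mup3, Mup20 and Mup21 together, on the 7 central members and on Mup22 (stacked bars, 1 bar a mouse). The members took between 0.165% and 0.520% of counts, Mup22 added between 0.0195% and 0.369%, and in mouse 319 most of the bar is the first of these shares, 0.163%.

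The way the counts between Mup7 and Mup19 were split also differed between mice. Mup22 took between 53.9% and 69.0% of them in Nts+/+ fed livers, 73.6% to 81.4% in Nts+/+ fasted, 84.7% to 86.3% in Nts-/- fed and 73.2% to 84.2% in Nts-/- fasted livers. Mup18 took between 4.61% and 16.5% of them in Nts+/+ fed livers, 6.21% in mouse 265 and between 0.249% and 1.75% in each of the other 8. Mup18 and Mup22 differ by so few bases that a change in the level of Mup18 and a change in how reads were divided cannot be told apart here.

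**Figure D4:**
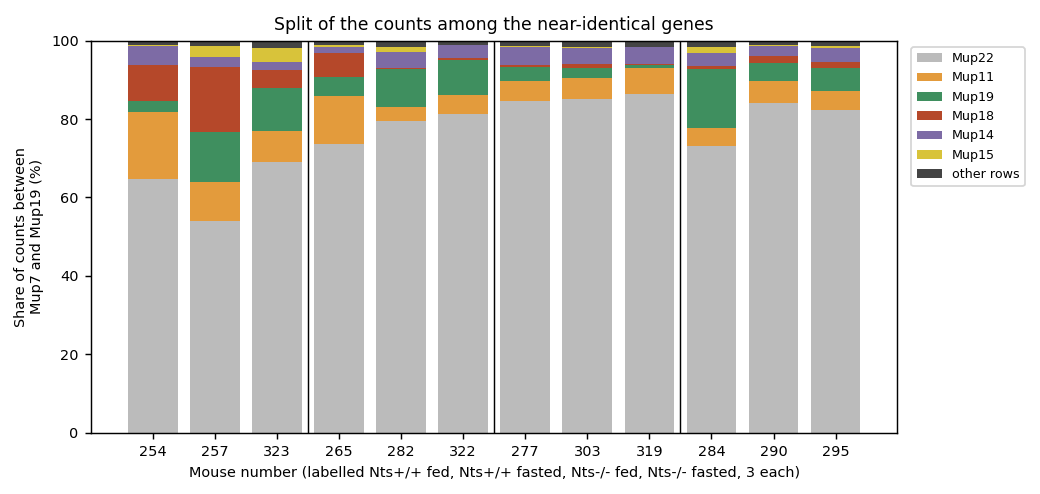
Percentage of the counts between Mup7 and Mup19 that each row took in each mouse (stacked bars; other rows in black). The Mup18 share is visible in the 3 Nts+/+ fed mice and in mouse 265, and the Mup22 share is smallest in mouse 257, at 53.9%.

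The 4 comparisons were fitted with edgeR's quasi-likelihood test over 13812 genes, all 10 members among them, with Benjamini-Hochberg adjustment. In fasted against fed Nts+/+ livers, 1 member passed an adjusted p of 0.05, where 18.1% of all genes did, and that was Mup3 (adjusted p = 0.0174). The call was lost without mouse 282 (log2 difference -0.66, adjusted p = 0.0722). In 4 members, Mup3, Mup7, Mup11 and Mup18, every fasted liver was below every fed one, against 17.9% of all genes. The median log2 difference of the members was -0.83, against 0.00 over all genes.

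In fasted against fed Nts-/- livers, 0 members passed with edgeR, where 16.8% of all genes did, and 2, Mup3 and Mup20, had an unadjusted p under 0.05, as had 31.7% of all genes. Without mouse 319, Mup3 passed (log2 difference -0.69, adjusted p = 0.0359), and with DESeq2 Mup20 did. The share of all genes that DESeq2 called is not given here, so its calls have no background to be read against. Mup18 and Mup19 were higher in every fasted liver, against 17.1% of all genes. The median log2 difference was 0.05, with members between -1.03 and 3.47.

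In libraries labelled Nts-/- against those labelled Nts+/+, both fed, 0 members passed with edgeR and 0 genes did in all, a background of 0%. Mup3, Mup11 and Mup18 had an unadjusted p under 0.05, as had 6.34% of all genes. DESeq2 called 1 member, Mup18, and its share of all genes is not given here. Mup3, Mup7, Mup11 and Mup18 were lower in every Nts-/- liver, against 5.85% of all genes, and the median of the members was -1.10 against 0.01. In libraries labelled Nts-/- against those labelled Nts+/+, both fasted, 0 members passed with edgeR, against a background of 0%, and 0 with DESeq2. With edgeR, 0 members had an unadjusted p under 0.05, where 4.96% of all genes did. The groups stayed apart in 0 members, where they did in 12.2% of all genes. Their median there was -0.10, against -0.01 over all genes.

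The fasting response of Nts-/- livers minus that of Nts+/+ livers passed for 0 members and 0 genes (0%) with edgeR, and for 0 members with DESeq2. Mup11 and Mup18 had an unadjusted p under 0.05, as had 4.8% of all genes. The differences were 2.21 (SE 0.89) for Mup11 and 5.14 (SE 1.66) for Mup18 on the log2 scale. The 2 genotype comparisons and the 2 fasting comparisons share livers, so their values are given side by side and no likeness between them is read.

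**Figure D5:**
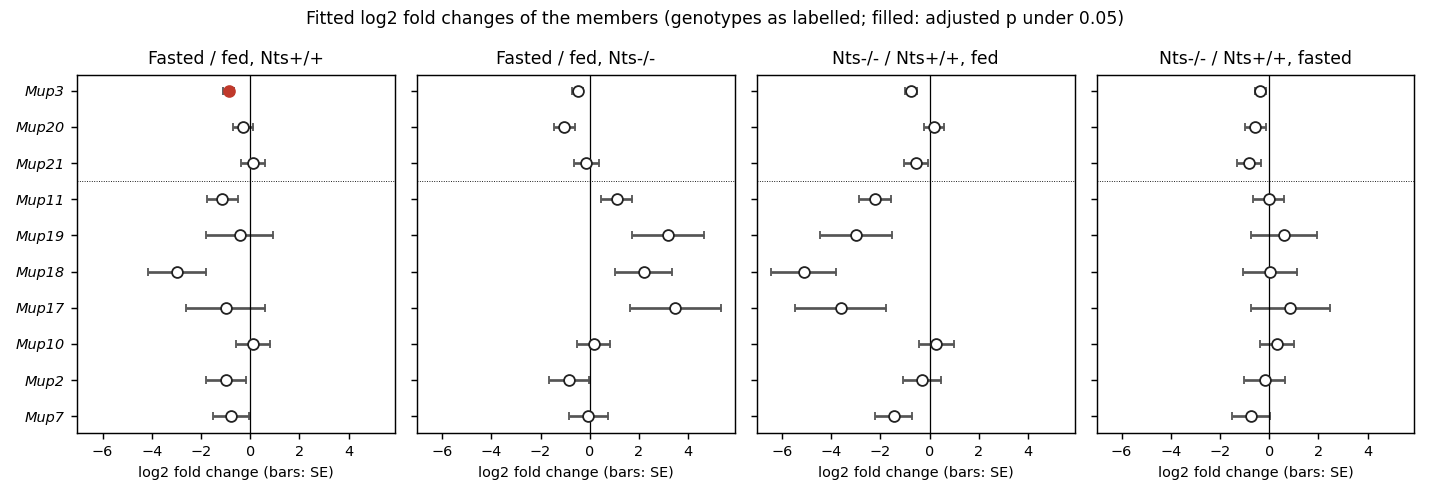
Fitted log2 fold change of each member (points; bars are 1 SE) in the 4 comparisons, with diverged members above the dotted line and central ones below. The filled point, Mup3 on fasting in Nts+/+ livers at -0.87, is the member that passed an adjusted p of 0.05, and the bars of Mup17, Mup18 and Mup19 are the widest.

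Markers of other cells moved with some of these values. The 8 Kupffer cell and macrophage markers, none at 0, summed to between 500.3 and 566 in Nts+/+ fed livers, 255 and 436 in Nts+/+ fasted, 309 and 439 in Nts-/- fed and 314 and 490 in Nts-/- fasted livers. They were highest in the group in which Mup3 and the members' sum were highest. Of the 8 genes 1 fell and 0 rose on fasting in Nts+/+ livers, where 9.19% of all genes fell and 8.91% rose. The 5 cholangiocyte markers summed to 34.0 to 49.7 and 33.4 to 35.7 in the fed groups, and to 13.7 to 26.2 and 15.1 to 29.6 in the fasted groups, Nts+/+ first. The 9 endothelial and stellate markers, none at 0, summed to 339 to 399 and 319 to 409 in the fed groups and to 284 to 317 and 289 to 312 in the fasted groups, so that fed and fasted livers stood apart in both genotypes. The 9 markers of fat, pancreas and muscle, of which Acta1, Cpa1, Lep and Myh4 were at 0 in all mice, summed to 11.0 to 13.3 and 7.53 to 12.5 in the fed groups and to 2.74 to 4.22 and 3.29 to 5.54 in the fasted groups. The 8 lymphocyte markers summed to 6.43 to 7.39 and 5.74 to 8.5 in the fed groups and to 4.84 to 5.94 and 4.76 to 9.48 in the fasted groups. The part of these cells in the result was not tested. Of 8 markers of salivary and lacrimal glands, which make Mups of their own, 6 were at 0 in all mice, and the other two, Amy1 and Aqp5, are also expressed elsewhere.

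The pathway known to drive these genes was read from fixed lists, in which calls are those of the same fits. Of 28 genes of growth hormone signalling and of the nuclear factors that act on Mup genes, 3 rose and 2 fell on fasting in Nts+/+ livers, and 1 rose and 5 fell in Nts-/- livers, where 8.91% of all genes rose and 9.19% fell in the first and 7.7% rose and 9.14% fell in the second. Ghr, the growth hormone receptor, was 440.5 ± 18.8 in Nts+/+ fed and 245 ± 21.4 in Nts+/+ fasted livers (log2 difference -0.85, adjusted p = 0.00202), and 454 ± 56.1 and 252 ± 41.7 in Nts-/- livers (-0.85, adjusted p = 0.00188). The difference of these responses of Ghr was 0.00 (SE 0.21).

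Nr1i3, the nuclear receptor CAR, rose on fasting, by 0.49 (adjusted p = 0.0333) in Nts+/+ and 1.67 (adjusted p = 2.43e-05) in Nts-/- livers. Nr3c1, the glucocorticoid receptor, fell by 0.61 in Nts-/- livers (adjusted p = 0.0144), and its log2 difference in Nts+/+ livers was -0.32 (adjusted p = 0.159). Esr1, the estrogen receptor, fell by 0.99 in Nts-/- livers (adjusted p = 0.00494) and had -0.49 in Nts+/+ livers (adjusted p = 0.104). Stat5b, the transducer of the growth hormone pulse, had -0.29 and -0.37, and its feedback target Socs2 had -1.44 (SE 0.58) and -1.43 (SE 0.58), none of them past the threshold. Hnf4a, a hepatocyte master regulator, had 0.22 and 0.25, and Zhx2, a regulator of several liver genes, 0.05 and 0.05.

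Of 12 growth hormone-driven secreted proteins and their partners, a list that shares Ghr, Socs2 and Cish with the previous one, 1 rose and 2 fell in Nts+/+ livers, and 2 rose and 6 fell in Nts-/- livers. Of all genes, 8.91% rose and 9.19% fell in the first, and 7.7% rose and 9.14% fell in the second. Igfals, which holds IGF1 in the circulating complex, fell by 1.0 (adjusted p = 0.00123) in Nts+/+ livers and fell by 1.43 in Nts-/- livers (adjusted p = 0.000104). Igfbp2, a carrier of IGF1 that growth hormone lowers, rose by 1.12 (adjusted p = 0.00317) and 1.49 (adjusted p = 0.00046). Igf1 itself fell by 0.92 in Nts-/- livers (adjusted p = 0.00568) and had -0.43 in Nts+/+ livers (adjusted p = 0.133).

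Genes with the sex bias that Mup genes share were compared next. Of 19 tested male-biased liver genes of 20, which share Serpina3k and Egfr with the previous list, 8 fell and 0 rose in Nts+/+ livers, and 7 fell and 0 rose in Nts-/- livers. The shares of all genes were 9.19% and 9.14% for a fall and 8.91% and 7.7% for a rise, Nts+/+ first. Mug2, a protease inhibitor of plasma, fell in both genotypes, with log2 differences of -1.02 (adjusted p = 0.00215) and -1.66 (adjusted p = 8e-05). Nudt7, a peroxisomal coenzyme A hydrolase, also fell, with -1.53 (adjusted p = 0.000202) and -1.33 (adjusted p = 0.000393). Hsd3b5, a steroid enzyme of male liver, stood at 2.05 ± 0.996 in Nts+/+ fed, 0.381 ± 0.427 in Nts-/- fed, 0.0760 ± 0.0263 in Nts+/+ fasted and 0.0310 ± 0.0269 in Nts-/- fasted livers, the last 2 near or under the level of 3 counts. Of 24 female-biased genes, 4 rose and 2 fell in Nts+/+ and 3 rose and 3 fell in Nts-/- livers. Cyp4a14, a fatty acid hydroxylase, rose by 3.28 (adjusted p = 1.5e-05) and 3.72 (adjusted p = 4.89e-06), and Slc22a27, an organic anion transporter, fell, with -1.47 (adjusted p = 0.000436) and -0.96 (adjusted p = 0.00565). Prom1 fell by 3.74 in Nts-/- livers (adjusted p = 0.000734) and had -1.23 in Nts+/+ livers (adjusted p = 0.106).

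Other lipocalins of the liver did not follow one course. Of 9 tested of 11, 2 rose and 2 fell in Nts+/+ livers, and 2 rose and 0 fell in Nts-/- livers. The shares of all genes were 8.91% and 7.7% for a rise and 9.19% and 9.14% for a fall, Nts+/+ first. Rbp4, the plasma carrier of retinol, rose by 1.06 (adjusted p = 0.000571) and 1.22 (adjusted p = 0.000179), and Lcn2, an acute-phase protein, rose by 2.78 (adjusted p = 0.015) and 2.36 (adjusted p = 0.0287). Ambp, the precursor of a urinary microglobulin, fell by 0.65 in Nts+/+ livers (adjusted p = 0.0186) and had -0.51 in Nts-/- livers (adjusted p = 0.0543). Of 20 abundant secreted proteins of hepatocytes, 4 rose and 6 fell in Nts+/+ livers, and 4 rose and 3 fell in Nts-/- livers. Serpina1c, a plasma protease inhibitor, fell, with log2 differences of -0.94 (adjusted p = 0.00228) and -0.80 (adjusted p = 0.00608). Ttr, which carries thyroid hormone, fell as well, with -0.63 (adjusted p = 0.0226) and -0.90 (adjusted p = 0.0037).

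The fasting itself was visible in 14 control genes, of which 4 rose and 6 fell in Nts+/+ and 6 rose and 6 fell in Nts-/- livers. Of all genes, 8.91% rose and 9.19% fell in the first, and 7.7% rose and 9.14% fell in the second. Acot1, a fatty acyl-CoA hydrolase, rose by 2.66 (adjusted p = 0.000409) and 2.94 (adjusted p = 0.000179). Acly, which feeds lipogenesis, fell, with -2.28 (adjusted p = 0.000906) and -2.85 (adjusted p = 0.000213). In both genotype comparisons and in the difference of the fasting responses, 0 genes of each of these lists passed with edgeR, against 0% of all genes.

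Among 13793 tested genes outside the family, 5 followed the summed members most closely over the 12 mice by Pearson's r of log2 TMM-normalized CPM. They were Fcna (r = 0.90, Spearman's rho 0.87), Il13ra2 (0.90 and 0.84), Zfp944 (0.90 and 0.79), Zfp68 (0.88 and 0.83) and Ikzf4 (0.87 and 0.76), and 29 genes had an r above 0.8. Fcna stood at means of 68.9 in Nts+/+ fed and 47.2, 49.9 and 51.0 in Nts+/+ fasted, Nts-/- fed and Nts-/- fasted livers. Over the 12 mice, Zfp68 and Zfp944 had means of 13.2 and 7.38. Il13ra2 and Ikzf4 were low, at 0.546 and 0.416, where 3 counts equal 0.0663 to 0.136. These values are descriptions over mice that share groups, depth and, in part, the markers given above.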

How the data were processed

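Total RNA of 12 mouse livers was sequenced. The authors deposited expected counts per gene, which the submitters' processing notes tie to Trimmomatic, RSEM and GRCm38 (versions not given in the sources used here). RSEM divides reads shared by paralogs by likelihood, so counts of near-identical Mup genes are uncertain one by one, and whether counting used strand is not given. Its 12 count columns each belong to 1 mouse, and 0 columns of other samples were found. The 1220 rows without a symbol were kept in library sizes.

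Groups came from the labels. Counts were rounded, filtered with filterByExpr (13812 genes), TMM-normalized and fitted with 1 mean per group in edgeR 4.0.16 (R 4.3.3), with robust quasi-likelihood tests and Benjamini-Hochberg adjustment over all tested genes. The biological coefficient of variation was 0.202. Standard errors are the log2 fold change over the square root of F. Floors are 3 counts of the library total and cover counting error only. On simulated counts, the fasting comparison of Nts+/+ livers recovered 74 of 100 genes changed 2-fold and 93 of 100 changed 4-fold, with 8 calls among the other genes of 13629 fitted. Simulated counts were independent between genes. The changed genes were drawn at random from those with a mean above 1 CPM, so recovery of lower genes was not measured. These rates therefore do not describe the central members, which share reads and had wide SEs.

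The members, gene lists and marker lists were chosen with earlier results of these data known, so members got no test of their own, and no p was adjusted over a list. Named were all 10 members, Mup22 and, of each list, up to 3 genes with the smallest p on fasting plus Ghr, Stat5b, Socs2, Igf1, Hnf4a, Zhx2 and Nr3c1, the 5 genes most like the sum, and up to 5 other Mup rows by mean level. One gene that this rule names is not reported here. Lists covered growth hormone signalling and nuclear factors, growth hormone-driven proteins, male-biased, female-biased, lipocalin, secreted-protein and fasting genes, and markers of hepatocytes, Kupffer cells, lymphocytes, endothelial and stellate cells, cholangiocytes, adipocytes with pancreas and muscle, and salivary and lacrimal glands.

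Transcripts of GENCODE vM39 (GRCm39) were matched by Ensembl identifier for sequence only and aligned with MAFFT 7.526. Promoters are RefSeq's. Alternatives were RLE and upper-quartile normalization, scaling without the Mup family, DESeq2 1.42.0, no filter, at least 10 counts in every mouse, other thresholds, only the mice compared, leaving out each mouse and, for sums, library totals, medians, all Mup rows and no Mup3. Sums with Mup22, and these sums without each mouse, were added after the data were seen.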

Additional observations from a re-analysis of the deposited data

Results flagged for a closer look

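Mup18 moved in opposite directions on fasting in the libraries of the 2 genotype labels. In Nts+/+ livers every fasted value (9.21 to 87.3 TMM-normalized CPM) was below every fed value (161 to 464), and in Nts-/- livers every fasted value (25.6 to 47.4) was above every fed value (0.686 to 17.3). The fitted difference of the fasting responses, Nts-/- minus Nts+/+, was 5.14 on the log2 scale (SE 1.66), and it did not pass edgeR's test over all genes (adjusted p = 0.897). The log2 difference on fasting in Nts+/+ livers, -2.96, was -4.82 without fasted mouse 265 and -2.34 without fed mouse 257. That in Nts-/- livers, 2.19, was 3.48 without fed mouse 303 and 1.66 without fed mouse 319. Of the 75-base windows of Mup18, 13.0% occur in no compared transcript of another Mup gene. The share of the counts between Mup7 and Mup19 that Mup22 took was 53.9% to 69.0% and 73.6% to 81.4% in Nts+/+ fed and fasted livers and 84.7% to 86.3% and 73.2% to 84.2% in Nts-/- fed and fasted livers, and its part in the result was not tested.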

How the results depend on the processing

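The number of members called on fasting in Nts+/+ livers was 1, and it was 0 when a log2 fold change of 1 or more in size was also asked, 2 with DESeq2 and 2 with only the 6 mice compared. Leaving out 1 mouse gave 0 (without fasted mouse 282) to 2 (without fasted mouse 265). In Nts-/- livers it was 0, 1 with DESeq2, and 0 to 1 on leaving out a mouse (1 without fed mouse 319). In Nts-/- against Nts+/+ fed livers it was 0, 1 with DESeq2, and 0 on leaving out any mouse. No share of all genes stands beside the DESeq2 numbers. The same holds for the numbers from the stricter rule, from only the mice compared and from leaving out a mouse. These changes in number therefore have no background to be read against. The cause of these changes was not tested, beyond the fewer mice or the stricter rule that some of them use. For the summed members, the log2 ratio on fasting in Nts+/+ livers was -0.90, -0.53 with all Mup rows and Mup22, and -0.99 to -0.76 on leaving out a mouse. In Nts-/- livers it was -0.16, 1.23 without Mup3, 0.40 with all Mup rows and Mup22 (-0.05 without fasted mouse 284, chosen after seeing the data), and -0.42 to -0.03 on leaving out a mouse. Values without Mup3 that use the Nts-/- fasted livers rest on mouse 284, at 1228 against 242 and 331 in the others of that group. Nts-/- over Nts+/+ in fed livers was -0.96, -2.0 without Mup3, and -1.09 to -0.75 on leaving out a mouse. In fasted livers it was -0.22, 0.23 without Mup3, -0.58 as a ratio of medians, and -0.47 to -0.09 on leaving out a mouse. The difference of the fasting responses was 0.74, 2.22 without Mup3, 0.20 with medians, and 0.49 to 0.87 on leaving out a mouse. Of 512 single-member values under alternatives, 500 stayed on their side of the threshold without being marked as moved, and some of these changed sign. On fasting in Nts-/- livers, Mup7 went from -0.06 to 0.81 without fed mouse 277. Mup10 went there from 0.15 to -0.33 without fed mouse 319. Of the other values, 6 newly passed, 1 no longer passed and 5 moved without a call. While 0 called values changed sign, only 1 value was called as reported. Scaling moved the median of all genes by less than 0.05 in each comparison. No paired analysis was possible because mouse numbers are not shared between groups. Few counts on Mup2 and Mup7, and reads that the central members share, limit what their single values show at 3 mice a group.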

Other observations

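Of the 49 rows of the family, Mup22 included, 29 had a count in some liver and 20 were at 0 in all 12, among them Mup4 and Mup5. The other rows with the highest mean levels were Mup14 (79.6 TMM-normalized CPM over the 12 mice) and Mup15 (32.5). Mup15 stood at 2.19, 75.7 and 149 in Nts+/+ fed, 5.39, 49.9 and 4.98 in Nts+/+ fasted, 3.41, 2.12 and 0 in Nts-/- fed and 84.6, 1.82 and 11.3 in Nts-/- fasted livers. Mice 257, 323, 282 and 284 were thus the 4 highest for Mup15, and the same 4 mice were highest for Mup17 and for Mup19. RSEM divided the reads that these genes share, and 0 of the 75-base windows of Mup19 are its own. The rows are therefore not separate observations. Mup15, Mup17 and Mup19 each had a wider range within a group than between the group means. Mup14 stood at 165 in mice 282 and 284, which are fasted mice of different genotype labels, and at 9.34 in mouse 319.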
